A study of Rattus norvegicus with 6 samples.

Results

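The genes described are 6 targets of the tumour suppressor p53 with roles in growth arrest and stress: Cdkn1a, Mdm2, Gadd45a, Ccng1, Zmat3 and Gpx1. They were chosen by symbol among the genes measured on a rat oligonucleotide array (an Affymetrix rat genome chip), and every probe set that maps to exactly 1 of them was used. That gave 13 probe sets for 6 of the 2890 genes measured. The cells were 208F, an immortal rat fibroblast line, and FE8, its derivative transformed by the HRAS oncogene, each represented by 1 line. Each line was left untreated (n = 1 array) or grown for 96 h with 5-aza-2'-deoxycytidine at 0.3 µM (n = 2 arrays), so the 4 groups are 208F control, 208F aza, FE8 control and FE8 aza. 5-aza-2'-deoxycytidine is a cytidine analogue that is built into DNA and traps DNA methyltransferases, and it is called the drug below. After the drug, by the brightest probe set of each gene, Cdkn1a and Mdm2 were called higher in both lines. Gadd45a was called higher in 208F and Gpx1 in FE8, and neither Ccng1 nor Zmat3 passed the test in either line. The other probe sets of Mdm2 did not pass in 208F, and the other probe set of Gpx1 did not pass in FE8. No gene of the 6 passed a test of whether the lines responded unequally, so these calls do not establish a response particular to 1 line.

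p53 is a transcription factor that is held at a low level in unstressed cells and accumulates after DNA damage and other stresses. It then switches on genes that stop the cell cycle, repair DNA, detoxify peroxides or trigger cell death, and it also switches on Mdm2, whose product marks p53 for destruction and so closes a negative feedback loop. In fibroblasts a lasting p53 response is known mainly for cell cycle arrest and senescence, in which the product of Cdkn1a takes part.

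The deposited values are signal intensities on a linear scale. Median signals of the arrays ranged from 354 to 422. Both untreated arrays were run on chips of lot 1 and the treated arrays in a later session on lots 2 and 3, so drug and session cannot be told apart in any comparison of treated with untreated cells. The labels do not say whether duplicates came from separate cultures, so the p-values measure only the spread between these arrays, which may be technical. In RNA from whole cultures, more RNA in every cell and a larger share of cells with the RNA cannot be told apart. Fibroblast markers were measured for 9 of 12 listed genes and none was at 0, and their summed signal moved with line and drug, from 87274 without the drug to 76667 and 63904 with it in 208F and from 52727 to 34036 and 34554 in FE8. Of these 9, Col3a1 and Col5a1 were called lower with the drug in 208F and Col1a2 and Col5a1 in FE8, and none was called higher. Not all moved down. Col1a1 read 10934, 12811 and 13955 in untreated and treated 208F, and only 166, 474 and 294 in FE8. Fn1 read 1771, 3139 and 2100 in untreated and treated FE8. Without the drug, Col1a1, Col1a2, Col3a1, Col5a1 and Fn1 were called lower in FE8 than in 208F. No gene of the leukocyte list was among those analysed here, and Kdr, the endothelial gene measured, lay between 2 and 84. The ratio of 5' to 3' signal of beta-actin, a sign of RNA quality, was 0.824 in untreated 208F, 0.456 to 0.529 in treated 208F and 0.351 to 0.405 in FE8. The same ratio of GAPDH was 0.916 in untreated 208F and 1.01 to 1.13 in treated 208F. In FE8 it was 0.691 without the drug and 1.07 to 1.13 with it, so the 2 ratios did not rank the arrays alike.

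The promoter sequences of 5 of the 6 genes were found in RefSeq (assembly GRCr8), and the stretch of 250 bases before the gene's start is printed for 4 of them because they differ in how well this stretch matches the sequence that p53 recognises. The p53 response element is built from copies of a 10-base consensus repeat that equals its own reverse complement, so that a match covers both strands. Capitals mark exact matches to this repeat and, where a directly adjoining repeat has at most 1 mismatch, the whole pair. The Cdkn1a stretch lies at chr20:7150682-7150931 (plus strand), the Ccng1 stretch at chr10:25684877-25685126 (minus strand), the Gadd45a stretch at chr4:97486800-97487049 (minus strand) and the Mdm2 stretch at chr7:55200792-55201041 (minus strand), each written 5′ to 3′ on the gene's own strand.
Cdkn1a: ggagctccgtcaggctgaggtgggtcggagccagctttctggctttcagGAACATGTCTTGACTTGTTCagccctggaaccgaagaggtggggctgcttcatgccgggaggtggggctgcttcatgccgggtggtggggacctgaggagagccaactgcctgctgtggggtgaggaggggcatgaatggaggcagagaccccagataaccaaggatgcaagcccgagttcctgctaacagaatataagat
Ccng1: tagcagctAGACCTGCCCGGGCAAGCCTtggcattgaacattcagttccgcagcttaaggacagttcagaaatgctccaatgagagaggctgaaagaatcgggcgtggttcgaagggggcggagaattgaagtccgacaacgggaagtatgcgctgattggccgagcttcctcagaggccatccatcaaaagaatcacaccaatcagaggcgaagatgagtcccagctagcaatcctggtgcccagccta
Gadd45a: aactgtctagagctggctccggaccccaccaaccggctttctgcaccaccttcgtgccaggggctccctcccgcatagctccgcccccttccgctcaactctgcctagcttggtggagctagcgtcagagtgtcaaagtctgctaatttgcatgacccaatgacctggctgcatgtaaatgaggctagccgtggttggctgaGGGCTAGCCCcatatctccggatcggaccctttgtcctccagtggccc
Mdm2: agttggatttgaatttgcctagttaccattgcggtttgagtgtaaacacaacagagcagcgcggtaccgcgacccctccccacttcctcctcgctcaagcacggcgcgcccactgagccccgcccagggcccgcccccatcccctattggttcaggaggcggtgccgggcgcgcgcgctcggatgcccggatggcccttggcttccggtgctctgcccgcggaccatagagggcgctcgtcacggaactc

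Cdkn1a carried the pair GAACATGTCTTGACTTGTTC, with its first base at -201 from the start, and Ccng1 carried the pair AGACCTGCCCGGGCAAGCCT, with its first base at -242. Gadd45a carried an exact repeat without an adjoining copy, GGGCTAGCCC, with its first base at -48. Neither Mdm2 nor Gpx1 had an exact match. The search covered 300 bases, from 250 before to 50 after the start, and among all 33469 such windows in the RefSeq listing 7.98% held an exact repeat and 0.0717% held such a pair. The Mdm2 window held 31 CpG dinucleotides, the step at which DNA methyltransferases act, which is more than in 90.7% of windows. The count was 7 in Cdkn1a, 18 in Ccng1, 14 in Gadd45a and 12 in Gpx1, against a median of 7 over all windows. These matches describe the letters in the windows only. The search was defined after the windows of these genes had been read, so the shares over all windows are no test of enrichment. As background, the promoter through which p53 acts on Mdm2 in mouse and human lies within the gene and not in the window shown, and a p53 site of Gadd45a is known within an intron in human.

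Cdkn1a encodes p21, an inhibitor of cyclin-dependent kinases that is the main effector of p53 in arrest before DNA replication. The signal of its probe set U24174_at was 155 in untreated 208F and 2685 and 1929 in treated 208F. In FE8 it was 196 without the drug and 1617 and 2172 with it. All 4 treated arrays stood far above both untreated arrays, and the treated arrays of the lines overlapped. The mean treated signal was 14.9 times the untreated signal in 208F and 9.67 times in FE8. On the scale of log2(signal + 64), on which all tests were made, Cdkn1a rose by 3.42 ± 0.32 in 208F (limma, adjusted p = 9.9e-05) and by 2.90 ± 0.32 in FE8 (adjusted p = 0.00030), where ± is the standard error.

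The other Cdkn1a probe set, L41275cds_s_at, read 105, 3476 and 1767 in untreated and treated 208F, and 43, 2202 and 3104 in untreated and treated FE8. It gave the same picture with more spread between the treated 208F arrays. The log2 difference was 3.91 ± 0.39 in 208F (limma, adjusted p = 0.00020) and 4.65 ± 0.39 in FE8 (adjusted p = 5.4e-05). Its untreated FE8 signal of 43 lies below the added constant of 64, so the size of the FE8 difference depends on that constant: it was 5.48 with a constant of 16 and 3.26 with a constant 4 times as large as 64. Both probe sets passed the test in both lines under each of the 10 alternative settings run. The 3 measured epithelial markers, Krt8, Krt18 and Epcam, moved with the drug as well. Their summed signal was 168 without the drug and 3458 and 3039 with it in 208F, and 145 without and 4345 and 4418 with it in FE8. The part of these markers, and of the fibroblast markers given above, in the results for the 6 genes was not tested.

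**Figure D1:**
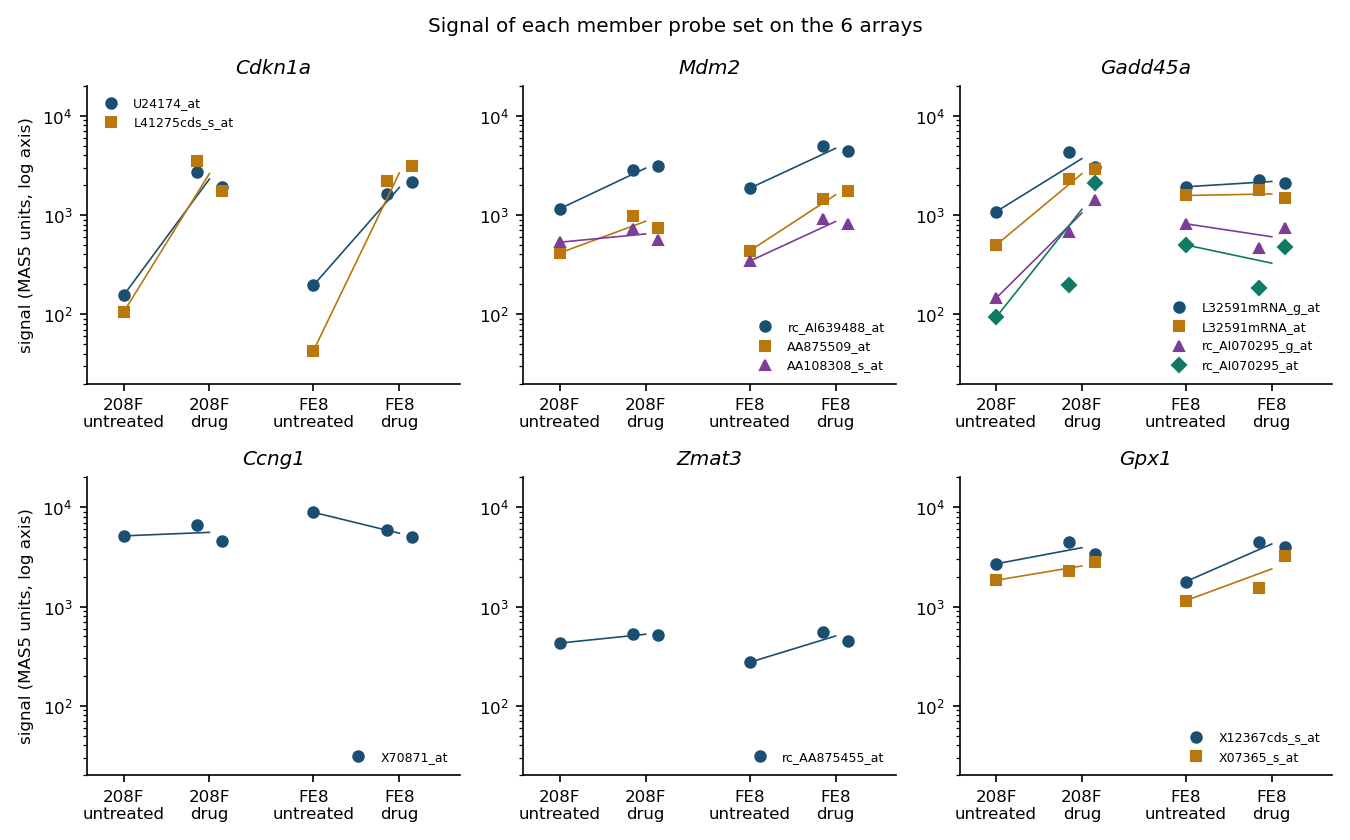
Signal of each of the 13 probe sets (MAS5 signal, log axis) in untreated and drug-treated 208F and FE8. Each point is 1 array, and each line joins the untreated array to the mean of the 2 treated arrays. The treated Cdkn1a arrays sit between 1617 and 3476 and the untreated arrays between 43 and 196, whereas Gadd45a differs between treated and untreated cells mainly in 208F.

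Mdm2 encodes the ubiquitin ligase that binds p53 and directs its breakdown. The brightest of its 3 probe sets, rc_AI639488_at, read 1158 in untreated 208F and 2828 and 3112 in treated 208F. In FE8 it read 1863 without the drug and 5016 and 4388 with it. The treated arrays lay above the untreated array in each line, and the order of levels was untreated 208F, untreated FE8, treated 208F and treated FE8, with no overlap between the treated duplicates of the lines. The log2 difference was 1.31 ± 0.26 in 208F (limma, adjusted p = 0.0145) and 1.30 ± 0.26 in FE8 (adjusted p = 0.0117). The difference between the lines in this effect was -0.01, with a 95% interval from -0.83 to 0.81, and its sign turned with quantile normalization (0.0045) and median scaling (0.011).

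The other Mdm2 probe sets passed the test in FE8 and did not pass it in 208F. AA875509_at read 415, 984 and 747 in untreated and treated 208F, and 435, 1438 and 1758 in untreated and treated FE8. Its log2 difference was 0.94 ± 0.31 in 208F (limma, adjusted p = 0.117) and 1.73 ± 0.31 in FE8 (adjusted p = 0.0056). The suffix of AA108308_s_at marks probes that may be shared with another transcript. It is also carried by L41275cds_s_at of Cdkn1a and by both Gpx1 probe sets. AA108308_s_at read 532, 731 and 558 in 208F and 343, 918 and 803 in FE8 in the same order. Its log2 difference was 0.24 ± 0.31 in 208F (limma, adjusted p = 0.77) and 1.18 ± 0.31 in FE8 (adjusted p = 0.043). The difference between the lines was 0.78 (95% interval -0.17 to 1.74) for AA875509_at and 0.94 (95% interval -0.04 to 1.92) for AA108308_s_at, and neither passed the test. The calls for rc_AI639488_at were lost in both lines when a treated FE8 array was left out. In 208F the difference stayed at 1.31 in these fits, so only the error estimate and the adjustment changed. In FE8 it was 1.21 without replicate 1 and 1.40 without replicate 2. The call in 208F was also lost in a fit without an intensity trend (adjusted p = 0.059), while AA875509_at passed in 208F without 208F aza replicate 2 (1.13, adjusted p = 0.0202) and lost its FE8 call without FE8 aza replicate 1 or 2 (adjusted p = 0.083 and 0.121). In the fits without a treated 208F array the prior degrees of freedom were infinite, so these p-values rest on the error shared over all probe sets and give no weight to a probe set's own duplicates. AA108308_s_at lost its FE8 call without either of these arrays (adjusted p = 0.295 and 0.189) and with the larger constant, quantile normalization, median scaling and the fit without a trend (adjusted p from 0.055 to 0.108).

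Gadd45a encodes a small stress protein that takes part in arrest before mitosis and in DNA repair. Its 4 probe sets come from 2 source sequences, so those that share a source are not independent. L32591mRNA_g_at, the brightest, read 1079 without the drug and 4351 and 3061 with it in 208F, and 1927 without and 2260 and 2097 with it in FE8. Its signals rose in 208F by 1.70 ± 0.29 on the log2 scale (limma, adjusted p = 0.0063), and the difference in FE8 was 0.17 ± 0.29 (adjusted p = 0.80). The FE8 arrays stayed within a narrow band, above untreated 208F and below treated 208F.

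L32591mRNA_at showed the same order, with signals of 498, 2292 and 2928 in untreated and treated 208F and of 1574, 1779 and 1484 in untreated and treated FE8. Its log2 difference was 2.24 ± 0.28 in 208F (limma, adjusted p = 0.0011) and 0.04 ± 0.28 in FE8 (adjusted p = 0.96), where it was -0.096 after median scaling. For rc_AI070295_g_at the signals were 145, 667 and 1428 in 208F and 816, 467 and 740 in FE8, so that untreated 208F was again lowest but FE8 overlapped with treated 208F. Its log2 difference was 2.32 ± 0.43 in 208F (limma, adjusted p = 0.0099) and -0.43 ± 0.43 in FE8 (adjusted p = 0.63). The fourth probe set, rc_AI070295_at, read 93, 196 and 2086 in 208F and 499, 182 and 472 in FE8. Its treated 208F duplicates differed 10.6-fold, which is wider than for 99.98% of all probe sets, and its difference of 2.25 ± 0.91 in 208F did not pass the test (limma, adjusted p = 0.22). It was 3.78 without 208F aza replicate 1 and 0.73 without 208F aza replicate 2. The call gained in the first of these fits rests on the error shared over all probe sets. The 208F call for L32591mRNA_g_at was lost without FE8 aza replicate 1 or 2, as was that for rc_AI070295_g_at. Their 208F differences stayed at 1.70 and 2.32 in these fits, so only the error estimate and the adjustment changed. L32591mRNA_at passed in 208F under each of the 10 alternatives.

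Ccng1 encodes cyclin G1, a cyclin that p53 induces and that acts with a protein phosphatase on Mdm2. Its probe set X70871_at read 5156 without the drug and 6576 and 4619 with it in 208F, and 8913 without and 5948 and 5012 with it in FE8. The untreated 208F array lay between its treated duplicates, while untreated FE8 lay above both treated FE8 arrays and above every 208F array. The log2 difference after the drug was 0.10 ± 0.30 in 208F (limma, adjusted p = 0.92) and -0.70 ± 0.30 in FE8 (adjusted p = 0.207). When 208F aza replicate 1 or replicate 2 was left out, the FE8 difference kept the value of -0.70. The call gained in these fits rests on the error shared over all probe sets. The 208F value was -0.16 without 208F aza replicate 1 and -0.07 after scaling the arrays to a common median.

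Zmat3 encodes a zinc finger protein that binds RNA and is induced by p53. Its probe set rc_AA875455_at read 428 without the drug and 532 and 519 with it in 208F, and 274 without and 557 and 452 with it in FE8. Both treated arrays lay above the untreated array in each line, and the treated arrays of the lines overlapped. The log2 difference was 0.26 ± 0.33 in 208F (limma, adjusted p = 0.76) and 0.74 ± 0.33 in FE8 (adjusted p = 0.215).

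Gpx1 encodes glutathione peroxidase 1, which reduces hydrogen peroxide with glutathione and has been reported as a p53 target in human cells. Its brighter probe set, X12367cds_s_at, read 2694 without the drug and 4474 and 3363 with it in 208F, and 1787 without and 4516 and 4029 with it in FE8. Untreated FE8 was lowest and the treated arrays of the lines overlapped. The log2 difference was 0.52 ± 0.28 in 208F (limma, adjusted p = 0.39) and 1.23 ± 0.28 in FE8 (adjusted p = 0.0229). The FE8 call was lost without FE8 aza replicate 1 or 2 (adjusted p = 0.269 and 0.181), after median scaling (1.08, adjusted p = 0.066) and without an intensity trend (adjusted p = 0.068).

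The other Gpx1 probe set, X07365_s_at, read 1840, 2300 and 2830 in untreated and treated 208F and 1148, 1546 and 3243 in untreated and treated FE8. Every treated array lay above the untreated array of its line, but the treated FE8 duplicates differed 2.10-fold. The log2 difference was 0.46 ± 0.38 in 208F (limma, adjusted p = 0.62) and 0.93 ± 0.38 in FE8 (adjusted p = 0.187). In FE8 it was 1.45 without replicate 1 and 0.41 without replicate 2. It stayed at 0.93 without 208F aza replicate 1 or 2. The call gained in those fits rests on the error shared over all probe sets. It gives no weight to the spread between the treated FE8 duplicates.

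Counted by the brightest probe set of each gene, 3 of the 6 genes were called higher in 208F (Cdkn1a, Mdm2 and Gadd45a). In FE8, 3 were called higher (Cdkn1a, Mdm2 and Gpx1). No gene was called lower in either line, though both treated FE8 arrays of Ccng1 lay below the untreated array (-0.70, limma, adjusted p = 0.207). Among all 4818 probe sets tested, 3.59% were called higher and 1.6% lower in 208F, and 5.06% were called higher and 3.09% lower in FE8. The median log2 difference of the 6 genes was 0.91 in 208F, against 0.11 over all probe sets, and 0.98 in FE8, against 0.08. The 6 genes were chosen with earlier results of these data known. They are also counted by their brightest probe sets, so the comparisons with all probe sets are description and not a test. Without regard to the test, both treated arrays lay above the untreated array for 12 of the 13 probe sets in 208F, where 44.1% of all probe sets did so and 29.9% had both below. In FE8 this held for 9 of the 13, with 3 lower on both arrays and 1 overlapping, where 42.9% of all probe sets lay above on both and 34.1% below. The calls over all probe sets in 208F split into 173 higher and 77 lower, and into 164 and 119 when the arrays were first scaled to a common median, which moved the median of all probe sets to -0.01. In FE8 the split was 244 higher and 149 lower, and 234 and 211 after this scaling, which moved the median to -0.03.

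**Figure D2:**
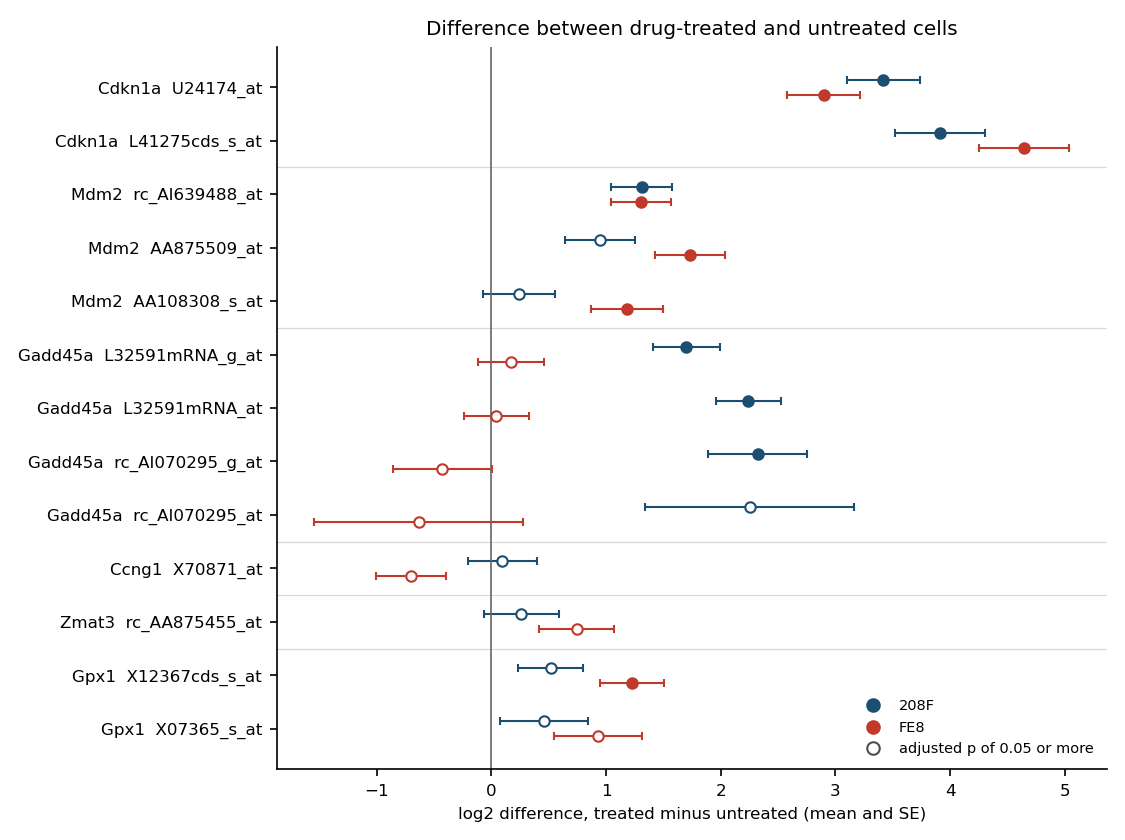
Difference between drug-treated and untreated cells for each probe set (log2 scale, treated minus untreated, horizontal axis) in 208F (blue) and FE8 (red), with standard errors as bars. Filled points have an adjusted p under 0.05. Both Cdkn1a probe sets are filled in both lines at 2.90 to 4.65, and 3 of the 4 Gadd45a probe sets are filled in 208F and none in FE8.

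Without the drug, the lines were compared array against array. No gene of the 6 was called by its brightest probe set, and 2 of them, Gadd45a and Ccng1, had an unadjusted p under 0.05. Of all 4818 probe sets, 756 had an unadjusted p under 0.05 in this comparison. Over all probe sets, 3.09% were called higher and 2.82% lower in FE8. The median log2 difference of the 6 genes was 0.45, against 0.02 over all probe sets. Gadd45a was nonetheless higher in untreated FE8 by 2 of its other probe sets. L32591mRNA_at, at 1574 in FE8 against 498 in 208F, differed by 1.54 ± 0.33 (limma, adjusted p = 0.0163), and rc_AI070295_g_at, at 816 against 145, differed by 2.07 ± 0.50 (adjusted p = 0.032). The brightest probe set, at 1927 against 1079, differed by 0.80 ± 0.33 (limma, adjusted p = 0.26), and rc_AI070295_at by 1.84 ± 1.05 (adjusted p = 0.49).

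These calls for Gadd45a did not hold under several alternatives. With quantile normalization the adjusted p was 0.060 for L32591mRNA_at and 0.111 for rc_AI070295_g_at, and without an intensity trend it was 0.061 and 0.070. Leaving out FE8 aza replicate 1 or 2 gave 0.107 and 0.102 for L32591mRNA_at and 0.135 and 0.134 for rc_AI070295_g_at, which also lost its call with the larger constant (1.42, adjusted p = 0.080). Conversely, L32591mRNA_g_at gained a call without 208F aza replicate 2, and so did rc_AI070295_at without 208F aza replicate 1 or 2. Their values stayed at 0.80 and 1.84, and these calls rest on the error shared over all probe sets.

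No other gene passed the test between the untreated lines over all arrays. Ccng1, at 8913 in FE8 against 5156 in 208F, gave 0.78 ± 0.35 (limma, adjusted p = 0.30). It gained a call at the same value without 208F aza replicate 1 or 2, from the error shared over all probe sets. Mdm2 gave 0.66 ± 0.30 for rc_AI639488_at (limma, adjusted p = 0.33), 0.06 for AA875509_at and -0.55 for AA108308_s_at, so its probe sets differed in sign. Cdkn1a gave 0.25 ± 0.37 for U24174_at and -0.66 ± 0.45 for L41275cds_s_at, again of opposite sign, and neither passed the test. Zmat3 gave -0.54 ± 0.38, and Gpx1 gave -0.58 ± 0.32 and -0.65 ± 0.44 by its 2 probe sets.

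Under the drug, both treated FE8 arrays lay above both treated 208F arrays for 3 of the 13 probe sets, all of Mdm2, and below them for 2, while 8 overlapped. Of all probe sets, 20.7% lay above on both and 21.5% below. The Mdm2 difference was 0.65 ± 0.22 for rc_AI639488_at (limma, adjusted p = 0.118), 0.84 ± 0.25 for AA875509_at and 0.39 ± 0.26 for AA108308_s_at, and none passed the test. Gadd45a went the other way, at -0.73 ± 0.24 for L32591mRNA_g_at (limma, adjusted p = 0.107) and -0.65 ± 0.23 for L32591mRNA_at (adjusted p = 0.15). Cdkn1a, Ccng1, Zmat3 and Gpx1 had differences between -0.27 and 0.13 by their brightest probe sets. No gene of the 6 was called, and over all probe sets 3.42% were called higher and 3.65% lower in FE8. An unadjusted p under 0.05 was found for 2 of the 6 genes and for 823 of all 4818 probe sets. The median log2 difference of the 6 genes was -0.036, against -0.00026 over all probe sets.

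Leaving out 1 treated 208F array changed some of these calls. Without 208F aza replicate 2, Mdm2 passed by rc_AI639488_at (0.72, adjusted p = 0.0256) and Gadd45a by L32591mRNA_g_at (-0.98, adjusted p = 0.0013). Without 208F aza replicate 1, which left only the arrays of chip lot 3, AA875509_at passed (1.03, adjusted p = 0.0120), as did the Gadd45a probe sets L32591mRNA_at (-0.82, adjusted p = 0.0252) and rc_AI070295_g_at (-1.19, adjusted p = 0.0068). The fourth Gadd45a probe set, rc_AI070295_at, was -1.04 ± 0.74 over all arrays, -2.57 without 208F aza replicate 1, which passed, and 0.48 without 208F aza replicate 2, which did not. 208F aza replicate 1 was the only treated array not of chip lot 3. With the chip lot as a block in the 4 treated arrays, that array is therefore set aside. The values are then those without it by construction, and the same probe sets passed, so this is not a separate alternative. The prior degrees of freedom were infinite in that fit too.

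**Figure D3:**
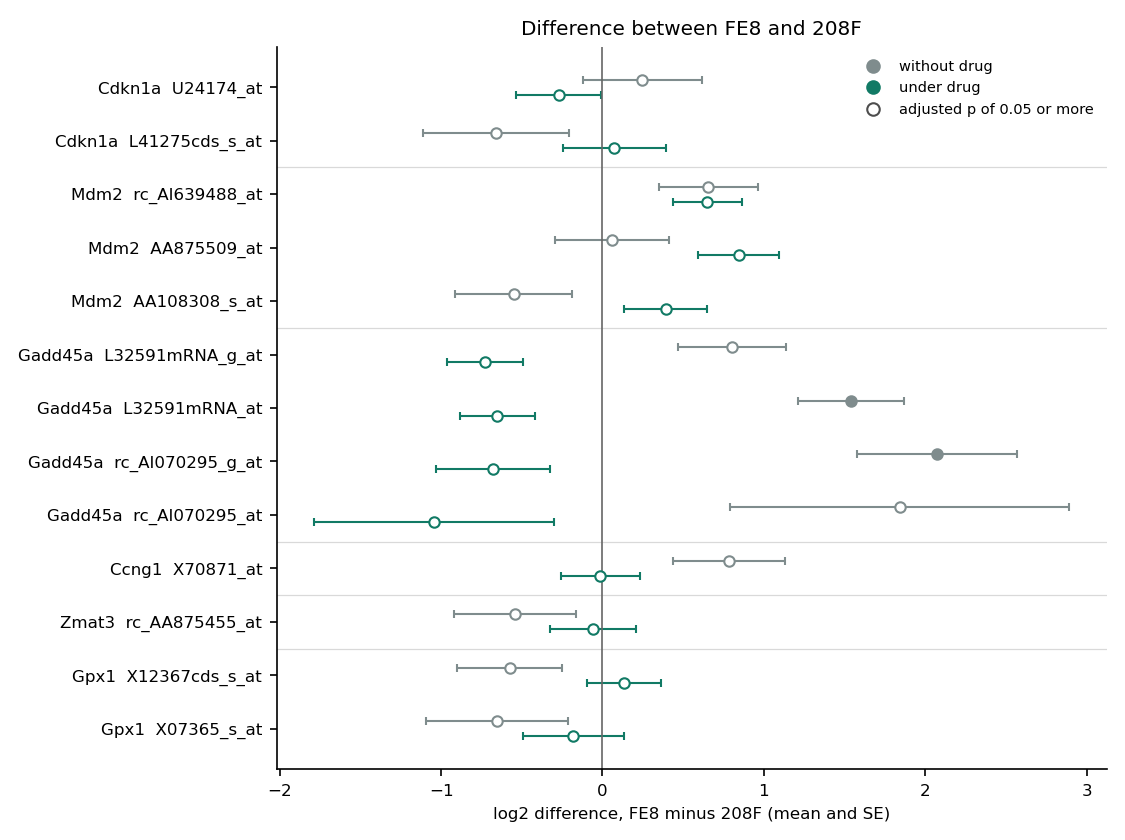
Difference between FE8 and 208F for each probe set (log2 scale, FE8 minus 208F, horizontal axis) without the drug (grey) and under the drug (green), with standard errors as bars. Filled points have an adjusted p under 0.05. Gadd45a lies at 0.80 to 2.07 without the drug and at -1.04 to -0.65 under it, and 2 of its probe sets are filled without the drug.

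Whether the lines responded unequally was tested as the FE8 drug effect minus the 208F drug effect. No gene of the 6 passed by its brightest probe set (limma), and 1 of them, Gadd45a, had an unadjusted p under 0.05. Of all 4818 probe sets, 364 had an unadjusted p under 0.05 in this test. Over all probe sets, 0.0208% were called higher and 0.0415% lower, which is 1 and 2 probe sets. The median of the 6 genes was -0.26, against -0.037 over all probe sets. The Gadd45a difference was -1.53 ± 0.41 for L32591mRNA_g_at (limma, adjusted p = 0.21, 95% interval -2.43 to -0.63) and -2.20 ± 0.40 for L32591mRNA_at (adjusted p = 0.055). It was -2.75 ± 0.61 for rc_AI070295_g_at (adjusted p = 0.117) and -2.88 ± 1.29 for rc_AI070295_at (adjusted p = 0.64). The 4 probe sets thus had the same sign, with intervals that lay below 0, but did not pass after adjustment over all probe sets. Those that share a source sequence are not independent, and all were read on the same arrays. The only untreated 208F array also enters the 208F drug effect and the comparison of untreated lines, so these Gadd45a results are not separate observations.

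After median scaling the Gadd45a difference passed by L32591mRNA_at (-2.18, adjusted p = 0.036) and rc_AI070295_g_at (-2.75, adjusted p = 0.039). Without 208F aza replicate 1 or 2 it was -1.28 and -1.78 for L32591mRNA_g_at. It was -2.37 and -2.02 for L32591mRNA_at, and -3.27 and -2.24 for rc_AI070295_g_at. The value for rc_AI070295_at was -4.41 without 208F aza replicate 1 and -1.36 without 208F aza replicate 2. Calls gained in these fits rest on the error shared over all probe sets and give no weight to a probe set's own duplicates. Of the other genes, Ccng1 had a difference of -0.80 (95% interval -1.73 to 0.14), which was -0.54 and -1.05 without 208F aza replicate 1 or 2. The intervals of the others included 0: from -1.51 to 0.48 for Cdkn1a by U24174_at, from -0.49 to 1.96 by L41275cds_s_at, from -0.53 to 1.50 for Zmat3 and from -0.16 to 1.58 for Gpx1 by X12367cds_s_at.

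Other genes of the pathway were taken from lists of p53 regulators, further p53 targets, growth arrest genes, cyclins with their kinases, and enzymes that remove peroxide and superoxide. None of the 16 listed p53 regulators was among the genes analysed here. Of 32 further p53 targets 3 were measured, and Gdf15, a secreted stress cytokine, rose in both lines. Its signal was 8 without the drug and 363 and 251 with it in 208F, and 51 without and 464 and 537 with it in FE8, so both untreated signals lay below the added constant. The log2 difference was 2.35 ± 0.39 in 208F (limma, adjusted p = 0.0053) and 2.29 ± 0.39 in FE8 (adjusted p = 0.0043). With the larger and the smaller added constant it was 1.09 and 3.73 in 208F and 1.30 and 2.94 in FE8. The FE8 call was lost without FE8 aza replicate 1 or 2 (adjusted p = 0.062 and 0.077). Ephx1, the microsomal epoxide hydrolase, was lower in FE8 than in 208F, by -2.18 ± 0.43 without the drug (limma, adjusted p = 0.0106) and by -1.32 ± 0.30 under it (adjusted p = 0.0222). Both calls were lost without FE8 aza replicate 1 or 2 (adjusted p from 0.056 to 0.264), and the second also without 208F aza replicate 2 (adjusted p = 0.072). The untreated FE8 signal of 54 lies below the added constant, and the difference without the drug was -1.23 with the larger constant and -2.79 with the smaller. The difference between its drug effects, 0.85 ± 0.52, was the largest of this list and did not pass. The median drug effect of the 3 genes was 0.44 in 208F and 1.29 in FE8.

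Of 20 growth arrest genes 8 were measured, with a median drug effect of 0.55 in 208F and 0.17 in FE8. Ddit3, the stress transcription factor CHOP, read 459, 2642 and 2455 in untreated and treated 208F and 4972, 5429 and 6724 in untreated and treated FE8. It rose in 208F by 2.32 ± 0.27 (limma, adjusted p = 0.00054), while in FE8 the difference was 0.28 ± 0.27, and it was higher in FE8 than in 208F by 3.27 ± 0.31 without the drug (adjusted p = 9.6e-05) and by 1.23 ± 0.22 under it. Its difference between the drug effects was -2.04 ± 0.38 (limma, adjusted p = 0.055). It was -1.99 and -2.09 without 208F aza replicate 1 or 2, where the call gained rests on the error shared over all probe sets. Btg1, an antiproliferative gene, was higher in FE8 by 2.34 ± 0.35 without the drug (limma, adjusted p = 0.0024) and by 1.18 ± 0.25 under it (adjusted p = 0.0141). Its other probe set, L26268_g_at, passed without the drug (2.03, adjusted p = 0.042) and did not pass under it (1.02, adjusted p = 0.15). Under the drug, the calls of Ddit3 and Btg1 were lost without FE8 aza replicate 1 or 2 (adjusted p from 0.084 to 0.341). No growth arrest gene passed in FE8 after the drug, where the largest difference was 0.79 ± 0.43 for Rb1, the retinoblastoma gene.

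Of 19 cyclins and kinases 12 were measured, with a median drug effect of -0.60 in 208F and -0.45 in FE8. Cdk1, the kinase that drives mitosis, read 2604, 847 and 1022 in untreated and treated 208F and 2507, 1004 and 1216 in untreated and treated FE8. It fell by 1.42 ± 0.28 in 208F (limma, adjusted p = 0.0133) and by 1.14 ± 0.28 in FE8 (adjusted p = 0.032). Ccnb1, its cyclin partner, fell by 1.00 ± 0.27 in FE8 (limma, adjusted p = 0.046), and Ccnd3 fell by 1.13 ± 0.29 in 208F (adjusted p = 0.049). Ccnb1 in 208F (-0.75 ± 0.27) and Ccnd3 in FE8 (-0.25 ± 0.29) did not pass. Neither gene passed for the difference between the drug effects. Ccnd1, which encodes cyclin D1, rose in FE8 by 1.63 ± 0.27 (limma, adjusted p = 0.0040). In 208F its difference was 0.93 ± 0.27 and did not pass (limma, adjusted p = 0.080). Its probe set D14014_g_at passed in 208F (1.11, adjusted p = 0.032), and the remaining ones did not. The difference between the drug effects of Ccnd1, 0.71 ± 0.38, did not pass (limma, adjusted p = 0.80). Ccnd1 was higher in FE8 than in 208F under the drug by 0.82 ± 0.22 (adjusted p = 0.0495). The latter call was lost under each of 9 alternatives, including the replicate block with an adjusted p of 0.086. In the same comparison of treated lines, 4 other Ccnd1 probe sets were tested. D14014_g_at (1.07, limma, adjusted p = 0.0094) and X75207_s_at (1.20, adjusted p = 0.0107) passed, and rc_AI231257_at (0.52, adjusted p = 0.56) and rc_AA957218_at (0.04, adjusted p = 0.98) did not. Without the drug no cyclin or kinase passed by its brightest probe set, the largest difference being -1.25 ± 0.33 for Ccnd3 (limma, adjusted p = 0.054). Without 208F aza replicate 1 or 2 it gained a call at the same value, from the error shared over all probe sets. The other Ccnd3 probe sets, D16309_at (-1.52) and U49935mRNA_s_at (-2.04), passed. Between the drug effects the largest difference was 1.13 ± 0.47 for Cdk2. The calls of Cdk1 in both lines and those of Ccnb1, Ccnd1 and Ccnd3 after the drug were lost without FE8 aza replicate 1 or 2 (adjusted p from 0.096 to 0.334). Those of Cdk1 and Ccnb1 in FE8 and of Ccnd3 in 208F were also lost with quantile normalization or without an intensity trend (adjusted p from 0.059 to 0.133).

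Of 20 enzymes that remove peroxide and superoxide 13 were measured, apart from Gpx1, with a median drug effect of 0.37 in 208F and 0.14 in FE8. Cat, which encodes catalase, and Gpx3, a secreted glutathione peroxidase, rose in 208F by 2.05 ± 0.50 (limma, adjusted p = 0.040) and 1.47 ± 0.36 (adjusted p = 0.041). Their FE8 differences, 0.62 ± 0.50 and 0.28 ± 0.36, did not pass. The treated 208F duplicates of Cat, at 530 and 1540, gave 2.77 without replicate 1 and 1.34 without replicate 2, and the other Cat probe set, M11670_at, gave 1.14 and did not pass (adjusted p = 0.22). In FE8, Gpx7 fell by 1.61 ± 0.34 (limma, adjusted p = 0.0152) and Prdx3, a mitochondrial peroxiredoxin, fell by 1.12 ± 0.30 (adjusted p = 0.042). Gpx7 was lower in treated 208F too, at -1.01 ± 0.34, which did not pass (limma, adjusted p = 0.13). Prdx3 gave 0.37 ± 0.30 there and did not pass. Cat, Gpx3 and Gpx7 (-0.59 ± 0.48) did not pass for the difference between the drug effects. Prdx3 was higher in FE8 without the drug by 1.71 ± 0.34 (limma, adjusted p = 0.0118), and its difference between the drug effects of -1.49 ± 0.42 did not pass. It was -1.22 and -1.77 without 208F aza replicate 1 or 2, where the gain of a call rests on the error shared over all probe sets. Under the drug Sod3, the extracellular superoxide dismutase, was higher in FE8 by 1.16 ± 0.30 (limma, adjusted p = 0.036), and Prdx6 was lower, at -1.15 ± 0.21 (adjusted p = 0.0059). All of these calls were lost without FE8 aza replicate 1 or 2 (adjusted p from 0.099 to 0.375), and those of Cat, Gpx3 and Prdx3 after the drug were also lost with quantile normalization or without an intensity trend (adjusted p from 0.054 to 0.128).

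**Figure D4:**
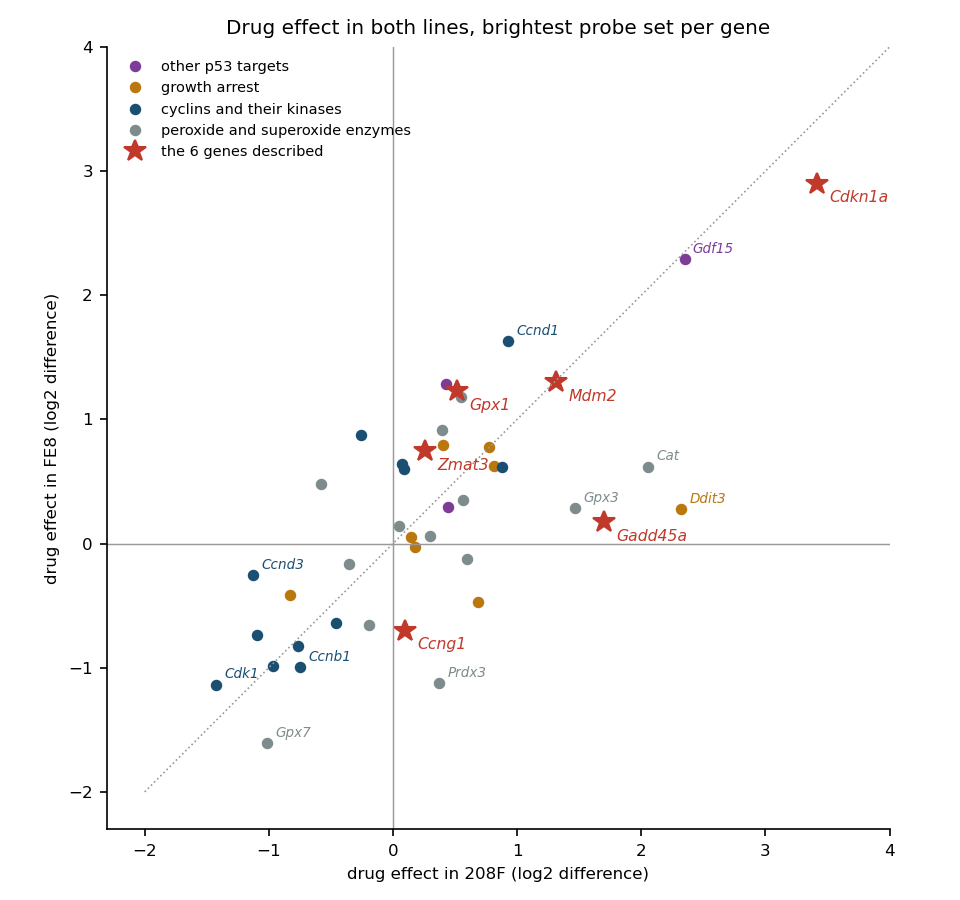
Drug effect in 208F (horizontal axis) and in FE8 (vertical axis), as log2 difference of treated minus untreated cells, for the brightest probe set of each gene. Stars are the 6 genes described, circles the other listed genes by list, and the dotted line marks equal effects. Cdkn1a lies at 3.42 and 2.90, Gdf15 at 2.35 and 2.29, and Gadd45a and Ddit3 lie to the right at 1.70 and 2.32 with 0.17 and 0.28 in FE8.

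The genes whose signals followed each of the 6 most closely over the 6 arrays were ranked by Pearson's r of log2(signal + 64) among 1915 probe sets with a span of over 1 log2 unit, as a description only, since the arrays share 4 groups. For Cdkn1a these were Crabp2 (r = 0.991), Spint2 (r = 0.990), Chrna7 (r = 0.990) and Vmp1 (r = 0.986). For example, Chrna7, a nicotinic receptor subunit, read 53 without the drug and 3756 and 4627 with it in 208F, and 115 without and 3230 and 4023 with it in FE8. For Mdm2 they were Dgka (r = 0.997), Ptpn12 (r = 0.993), Alas1 (r = 0.990) and Prph (r = 0.990), in each of which both treated FE8 arrays were highest. For Gadd45a they were Gas5 (r = 0.991), Gpx3 (r = 0.961), Gaa (r = 0.950) and Apoe (r = 0.946). Gas5, a growth arrest transcript that hosts small nucleolar RNAs, read 1347, 3839 and 3009 in untreated and treated 208F and 2283, 2256 and 2343 in untreated and treated FE8. For Gpx1 they were Cela2a (r = 0.989), Hist1h2af (r = 0.989), Nptx2 (r = 0.988) and Bcl2l11 (r = 0.986). Nptx2 lay at 20 to 121 and Bcl2l11 at 4 to 101, partly below the added constant of 64. At least 1 untreated signal of Crabp2, Spint2, Chrna7 and Prph lay below it too. The r of such genes depends in part on that constant. Ccng1 and Zmat3 spanned 0.94 and 0.88 log2 units and were not ranked.

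Among the 6 genes themselves, the brightest probe set of Cdkn1a had an r of 0.84 with that of Mdm2, 0.80 with Gadd45a, 0.86 with Gpx1, 0.76 with Zmat3 and -0.39 with Ccng1 over the 6 arrays. Gpx1 and Zmat3 had an r of 0.92, and Ccng1 had an r of -0.67 with Zmat3. The probe sets of a gene also differed in how closely they followed each other. The r was 0.99 between both Cdkn1a probe sets, 0.60 between both Gpx1 probe sets, 0.74 to 0.93 among those of Mdm2 and 0.39 to 0.91 among those of Gadd45a.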

How the data were processed

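Expression was measured with 6 arrays in 4 groups taken from the sample labels. The deposited values are signal intensities per probe set, made by the authors with MAS5 per the submitters' processing notes, which give no version or settings, so other scaling or filtering by the authors is not given in the sources used here. The table held 4847 probe sets, of which 29 controls were left out and 4818 were tested. The platform annotation paired 3956 probe sets with 1 gene (2890 genes in all), 207 with several and 655 with none. Gene identifiers of 3942 probe sets matched a table of assembly GRCr8, used for names.

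Intensities were taken as log2(signal + 64), 64 being the 10th percentile of tested signals. Models with 4 group means were fitted with limma 3.58.1 in R 4.3.3 (eBayes with an intensity trend, 2 residual and 9.02 prior degrees of freedom) and tested on simulated data. The untreated groups, with 1 array each, took their error from the spread of the treated duplicates. P-values were 2-sided, with Benjamini-Hochberg adjustment over 4818 probe sets in each comparison, and the threshold was 0.05. Each gene was counted by its brightest probe set. The number of arrays limits the precision.

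All probe sets of the 6 genes are named. From each list up to 4 called genes per comparison and direction are named, or the gene with the largest difference where none passed, and per gene the 4 genes most like it. The members and lists were chosen with earlier results of these data known, and the promoter search was defined after the windows had been read. Alternatives were an added constant of 16 or of 4 times 64, a filter on low signals (at least 100 in 2 arrays, 4394 probe sets), quantile normalization, median scaling, no intensity trend, each treated array left out, and, for the treated lines, a replicate block, a chip lot block and a fit of treated arrays only.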

Additional observations from a re-analysis of the deposited data

How the results depend on the processing

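Of the 689 values of member probe sets under alternative settings, 609 kept their direction and side of the threshold, 31 gained a call, 30 lost one and 19 changed sign, all of the last among values that were not called. Many of these values could not change direction. Leaving out a treated array does not alter a difference that does not use it, and the filter and the fit without a trend keep the main differences. A call gained or lost at an unchanged value reflects only the error estimate and the adjustment. With quantile normalization 165 probe sets were called for the drug in 208F and 258 in FE8, against 250 and 393. For the difference between the drug effects, 3 calls became 10 with 16 added, 6 with a constant 4 times as large as 64, 27 with median scaling, and 0 with the filter on low signals, with quantile normalization and without an intensity trend. With each gene as the mean of its probe sets, 1 member was called between the untreated lines instead of 0, and 2 for the drug in 208F instead of 3. Leaving out 1 treated array gave 75 to 663 called probe sets for the drug in 208F, 76 to 783 in FE8, 109 to 541 between untreated lines, 96 to 530 between treated lines and 0 to 206 for the difference of the drug effects. The members called were 1 to 3, 1 to 4, 0 to 2, 0 to 2 and 0 to 2 in the same order. In these fits 1 residual degree of freedom remained, and the prior degrees of freedom were 5.58 and 5.62 without a treated FE8 array and infinite without a treated 208F array or with the chip lot as a block, where calls gained say nothing of a probe set's own spread.

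The replicate block in the treated arrays gave 149 higher and 166 lower calls, treated arrays alone 170 and 176, and the chip lot as a block 222 and 258. The replicate-number differences of the lines had a correlation of 0.319 over probe sets, and with 2 pairs this does not establish a pairing.

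Signs changed as follows, and the cause was not tested. With median scaling the drug effect was -0.069 for Ccng1 in 208F and -0.096 for Gadd45a L32591mRNA_at in FE8. The Mdm2 rc_AI639488_at difference of the drug effects was 0.035 with the larger constant, 0.0045 with quantile normalization and 0.011 with median scaling. The Ccng1 difference between treated lines was 0.24 with the chip lot as a block. Leaving out 1 treated array, the drug effect ranged from -0.16 to 0.35 for Ccng1 in 208F and from -0.082 to 0.17 for Gadd45a L32591mRNA_at in FE8. Between treated lines the ranges were -0.40 to 0.55 for Cdkn1a L41275cds_s_at, -2.57 to 0.48 for Gadd45a rc_AI070295_at, -0.27 to 0.24 for Ccng1, -0.19 to 0.075 for Zmat3, -0.068 to 0.34 for Gpx1 X12367cds_s_at and -0.70 to 0.34 for Gpx1 X07365_s_at. For the difference of the drug effects they were -0.10 to 0.088 for Mdm2 rc_AI639488_at and -0.048 to 0.99 for Gpx1 X07365_s_at.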
